A study of Mus musculus with 12 samples.

Results

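Dnmt1, Dnmt3a, Dnmt3b, Tet1, Tet2, Tet3 and Uhrf1, the mouse genes that write, erase and read CpG methylation, were taken by name and make up 7 of the 50600 gene identifiers counted in every library. Each name belonged to 1 identifier, and all 7 passed the filter on low counts. The libraries hold poly(A)+ RNA of cerebral cortices from C57BL/6 mice of 4 ages, which were embryonic day 11 (E11), E13, E17 and postnatal day 1 (P1), and the labels name no mutation or agent. Every age has libraries A, B and C, and each of these holds the RNA of a single animal, 3 litters being sampled per age. The study as a whole is about zinc in the forming cortex. Levels are given in CPM, a gene's count relative to the library total after TMM scaling of that total.

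DNA methylation in mammals sits mainly on cytosines followed by guanine. At each round of replication the new strand lacks the mark, UHRF1 binds the hemimethylated site and recruits DNMT1, and DNMT1 copies the mark onto the new strand. DNMT3A and DNMT3B methylate DNA that carried no mark, and in the brain DNMT3A is known for the methylation that neurons gain after birth, also outside CpG sites. TET1, TET2 and TET3 oxidise the methyl group to hydroxymethylcytosine, a base that is abundant in neurons and from which the mark can be removed.

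Total counts were 28173745 to 45858712 per library. The summed CPM of 9 neuronal markers, such as Tubb3 and Stmn2, lay between 1233 and 1402 at E11, 2603 and 3155 at E13, 10287 and 10496 at E17, then 10528 and 10868 at P1. The summed CPM of 8 radial glial genes, such as Pax6 and Nes, lay between 2612 and 2688 at E11, 2620 and 2675 at E13, 1202 and 1391 at E17, and 974 and 1018 at P1. Within that list Pax6 and Nes fell for P1 against E11, with log2 fold changes of -3.13 and -2.92, whereas Fabp7 and Slc1a3, which astroglia also express, rose by 0.88 and 1.92 and averaged 374 and 304 CPM at P1. The sum of 5 oligodendrocyte lineage genes was 45.8 to 52.3 CPM at E11, 32.7 to 45.8 CPM at E13, 101 to 166 CPM at E17 and 300.3 to 323 CPM at P1. That of 5 astrocyte genes was 216 to 270.1 CPM, 198 to 242 CPM, 165 to 252 CPM and 343 to 377 CPM at the same ages, and that of 5 endothelial genes 214 to 269.9 CPM, 189 to 242 CPM, 136 to 159 CPM and 118 to 147 CPM. The astrocyte sum was mostly Gja1 at E11, with a mean of 211 CPM in a mean sum of 238 CPM. Gja1 had a log2 fold change of -3.08 for P1 against E11. The other 4 astrocyte genes were higher at E17 and at P1 than at E11, Slc1a2 by 2.88 at P1. Of the endothelial genes, 4 were lower at P1 than at E11 and 1 was higher, Cldn5 by 1.42. Markers of neighbouring tissue differed too. The sum of 10 red cell genes was 5742 to 16478 CPM at E11, with E11 A highest, and 782 to 1762 CPM at E13, 165 to 344 CPM at E17 and 45.6 to 83.9 CPM at P1. That of 6 meningeal fibroblast genes was 1177 to 1427 CPM at E11, 791 to 1085 CPM at E13, 14.1 to 16.3 CPM at E17 and 13.97 to 52.5 CPM at P1, and that of 5 choroid plexus genes was 86.3 to 261 CPM, 38.4 to 387 CPM with E13 C lowest, 0.516 to 8.45 CPM and 0.879 to 0.954 CPM at the same ages. Of the genes in these lists, 1 red cell gene was at 0 at E17 and the others had counts at every age. The part of these other cells in the results on the methylation genes was not tested, and in whole cortex fewer cells of a type and less RNA per cell cannot be told apart.

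All 7 genes differed across the 4 ages in edgeR's quasi-likelihood test with Benjamini-Hochberg adjustment over 17847 genes, where 90.2% of all tested genes did. The maintenance and de novo genes were highest at E11 and lower later, by a margin that ran from 1.87-fold for Dnmt3a to 25.3-fold for Uhrf1 between P1 and E11. The TET genes were highest at E13 or E17, and between P1 and E11 their log2 fold changes lay between -0.25 and 0.29. The summed level of Dnmt1, Dnmt3a and Dnmt3b averaged 808 ± 37.3 CPM at E11, 699 ± 37.3 CPM at E13, 417 ± 15.8 CPM at E17 and 385 ± 16.6 CPM at P1 (SD, n = 3 each). That of the 3 TET genes averaged 329.8 ± 21.97 CPM, 398 ± 24.0 CPM, 392 ± 20.6 CPM and 312 ± 12.6 CPM over the same ages. The highest sum of the methyltransferases at P1 was 396 CPM and the lowest at E11 769 CPM, while the sums of the TET genes at P1 and E11 overlapped.

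**Figure D1:**
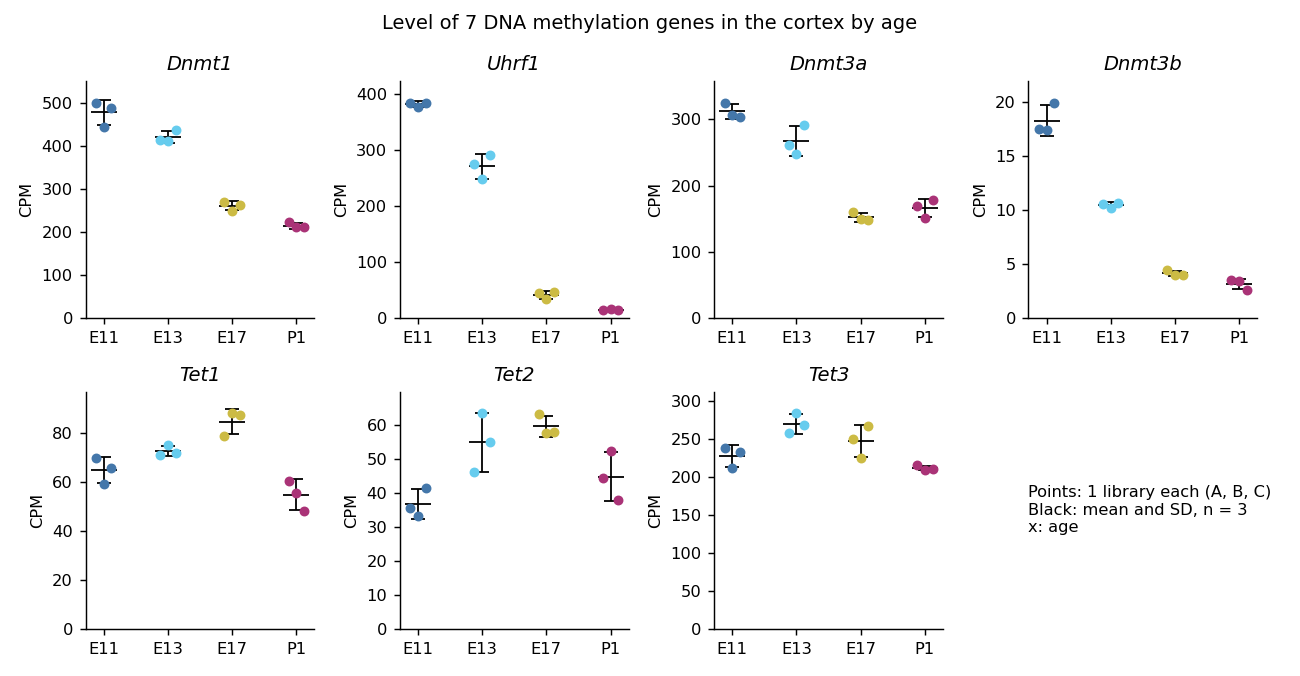
Level of each of the 7 genes in CPM (vertical axes, linear, from 0) in the 3 libraries of each age (points), with the mean as a line and the SD as a bar. Uhrf1 sits between 377 and 385 CPM at E11 and between 14.5 and 15.98 CPM at P1, while Tet3 lies between 209.6 and 284 CPM in all 12 libraries.

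Uhrf1 fell at every step, and furthest between E13 and E17. In libraries A, B and C its level was 385, 377 and 385 CPM at E11, 275, 248 and 292 CPM at E13, 45.0, 33.5 and 47.2 CPM at E17, and 14.8, 15.98 and 14.5 CPM at P1. No library of an age reached the range of another age, and the E11 libraries differed by few CPM. On the log2 scale Uhrf1 changed by -0.49 ± 0.10 for E13 against E11 (SE, adjusted p = 0.00183), -2.69 ± 0.11 for E17 against E13 (adjusted p = 1.9e-10) and -1.48 ± 0.11 for P1 against E17 (adjusted p = 1.81e-06). The steps between the sampled ages differ in length, so the sizes of their changes are not rates. The step from E13 to E17 made up 57.7% of the log2 difference between P1 and E11, which was -4.66 ± 0.12 (adjusted p = 1.12e-12). Only 1.3% of all tested genes had a log2 fold change as low or lower in that comparison.

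Dnmt1, the enzyme that UHRF1 recruits, also fell at each step, but by far less. Its level was 501, 446 and 488 CPM at E11, 415, 412 and 438 CPM at E13, 269.9, 249 and 264 CPM at E17, and 224, 211 and 211 CPM at P1. The ages did not overlap, although the lowest E11 library and the highest E13 library lay close together. For Dnmt1 the log2 fold change was -0.18 ± 0.06 for E13 against E11 (SE, adjusted p = 0.0219), -0.69 ± 0.06 for E17 against E13 (adjusted p = 1.07e-07) and -0.28 ± 0.06 for P1 against E17 (adjusted p = 0.00131). Between P1 and E11 it was -1.15 ± 0.06 (adjusted p = 2.55e-10), a 2.22-fold lower level at P1. A log2 fold change as low or lower was found in 19.9% of all tested genes there. The difference between E13 and E11 missed the threshold without E11 A (adjusted p = 0.0861), E11 C (0.0698), E13 A (0.0576) or E13 B (0.0644).

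Within a library, which needs no scaling, there were 0.800 Uhrf1 counts per Dnmt1 count at E11, 0.643 at E13, 0.159 at E17 and 0.0701 at P1 (geometric means of 3 libraries). Neither this ratio nor those below were divided by gene length, so they compare ages and not the levels of different genes. The ratio was 0.769 to 0.845 over the E11 libraries, 0.602 to 0.666 at E13, 0.134 to 0.179 at E17 and 0.0661 to 0.0758 at P1, with no overlap between ages. An exact permutation test over all 369600 assignments of the 12 libraries to the ages gave p = 6.49e-05, the smallest it can give, and 8.12e-05 after adjustment over the 5 ratios tested.

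Genes of S phase are commonly bound by E2F factors, so the promoter windows that RefSeq gives for the 7 genes (build GRCm38.p6, 250 bases before to 50 after each start) were searched on both strands for the octamers TTTCCCGC, TTTCGCGC, TTTGCCGC and TTTGGCGC, with overlapping matches allowed. Dnmt1 and Uhrf1 held a match and the other 5 genes did not, while 2.605% of 27025 genes with a window and 8 of 14 replication genes with a window did. Both Dnmt1 matches lay in the window of the most downstream of its 3 starts, and its other windows held none. The stretches that hold the matches are printed in the gene's own direction, with the octamer in capitals, because Dnmt1 and Uhrf1 are the members that were also compared with replication genes. The Uhrf1 stretch lies at chr17:56304093-56304192 on the plus strand, 220 to 121 bases before the downstream one of its annotated starts and in no annotated Uhrf1 exon. The Dnmt1 stretches lie at chr9:20952824-20952853 and chr9:20952574-20952603 on the minus strand, both inside annotated untranslated exon sequence of Dnmt1, and in the upstream one the octamer is read on the opposite strand.
Uhrf1: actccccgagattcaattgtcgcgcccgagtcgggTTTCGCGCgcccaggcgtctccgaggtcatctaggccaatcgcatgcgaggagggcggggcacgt
Dnmt1 upstream stretch: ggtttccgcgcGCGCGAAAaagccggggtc
Dnmt1 downstream stretch: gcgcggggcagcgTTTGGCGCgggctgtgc

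A match of letters is not a bound site. Each octamer also holds a CpG, and the share over all genes was not matched for CpG content. The windows also differed in CpG content: the Tet2 window held 57 CpG, those of Dnmt3a 18 to 47, that of Dnmt3b 30, those of Dnmt1 2 to 33, those of Uhrf1 12 and 33, that of Tet3 22 and that of Tet1 17, against a median of 7 over all windows of the same length.

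Since Dnmt1 and Uhrf1 act behind the replication fork, both were set against 18 genes of DNA replication, such as the helicase subunit gene Mcm3 and the origin licensing gene Cdc6. Of these, 15 were lower at E13 than at E11, beside 17.5% of all tested genes. All 18 were lower for E17 against E13 and for P1 against E17, beside 37% and 25.9% of all tested genes. Their median log2 fold change for P1 against E11 was -3.28, beside -0.036 over all tested genes. Cdc6 fell by 4.70 and Mcm3 by 4.38 on the log2 scale. All 18 replication genes fell by more than Dnmt1 between P1 and E11, the least by 1.67, and Uhrf1 fell by more than 17 of them, all but Cdc6.

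There were 0.128 Dnmt1 counts per summed count of the replication genes at E11, 0.145 at E13, 0.387 at E17 and 0.553 at P1, so Dnmt1 RNA was higher relative to these genes in the later cortex. The ratio was 0.524 to 0.579 over the P1 libraries and 0.120 to 0.135 over the E11 libraries. For Uhrf1 the ratio moved the other way, with 0.103 at E11, 0.0935 at E13, 0.0614 at E17 and 0.0388 at P1, and 0.0369 to 0.0398 over the P1 libraries against 0.102 to 0.104 over the E11 libraries. Each ratio differed across the ages at the smallest p of the exact permutation test, 6.49e-05 (8.12e-05 after adjustment). The summed replication genes themselves averaged 3729 CPM at E11 and 389 CPM at P1. A gene of unchanged CPM would thus also rise against them, so the test does not set Dnmt1 apart from other genes.

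The size of the Uhrf1 shift depended on the cell cycle genes used. Relative to 14 mitosis genes, such as Bub1 and Ccnb1, whose median log2 fold change for P1 against E11 was -4.25, the log2 ratio of Uhrf1 differed by -0.38 (P1 minus E11), compared with -1.40 relative to the replication genes. That of Dnmt1 differed by 3.13, compared with 2.11. Of the mitosis genes only Bub1, at -4.83, fell by more than Uhrf1, and all 14 fell by more than Dnmt1.

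**Figure D2:**
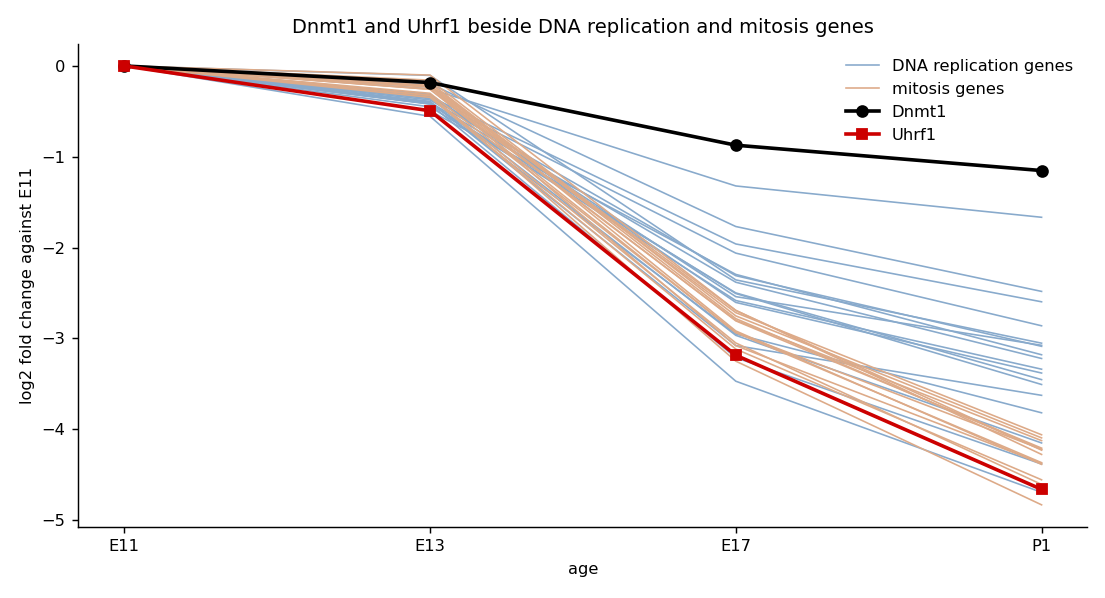
Fitted log2 fold change against E11 (vertical axis) at each age (horizontal axis) of Dnmt1 and Uhrf1 (thick lines) beside the 18 DNA replication genes and 14 mitosis genes (thin lines, 1 per gene). At P1, Dnmt1 at -1.15 lies above all genes of both lists, whose medians are -3.28 and -4.25, and Uhrf1 at -4.66 lies near their lower end.

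Dnmt3a, a de novo methyltransferase, fell at both steps up to E17, and its difference between P1 and E17 missed the threshold. Its level was 325, 306 and 304 CPM at E11, 260.3, 248 and 292 CPM at E13, 159.6, 149 and 148 CPM at E17, and 169 and 152 CPM at P1 in libraries A and B with 179 CPM in library C. The E17 and P1 libraries overlapped, and every library of both ages lay below every library of E11 and E13. Its log2 fold change was -0.23 ± 0.07 for E13 against E11 (SE, adjusted p = 0.0213), -0.81 ± 0.07 for E17 against E13 (adjusted p = 1.8e-07) and 0.13 ± 0.07 for P1 against E17 (adjusted p = 0.143), with the last at 0.0237 without P1 B. The fall between E13 and E11 missed the threshold without E11 A (adjusted p = 0.0776), E13 A (0.0612) or E13 B (0.0916). For P1 against E11 the log2 fold change was -0.90 ± 0.07 (adjusted p = 3.12e-08), and 25.1% of all tested genes had one as low or lower.

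Dnmt3b, the other de novo enzyme, fell further than Dnmt3a. It had 17.4, 17.4 and 19.9 CPM at E11, 10.6, 10.2 and 10.6 CPM at E13, 4.43, 4.01 and 3.99 CPM at E17, and 3.49, 3.402 and 2.58 CPM at P1, from 108 to 625 counts per library. The ages did not overlap, with P1 C the lowest library. Dnmt3b changed by -0.80 ± 0.11 on the log2 scale for E13 against E11 (SE, adjusted p = 8.25e-05), -1.34 ± 0.12 for E17 against E13 (adjusted p = 1.78e-07) and -0.39 ± 0.12 for P1 against E17 (adjusted p = 0.0185). The last call was lost without E17 A (adjusted p = 0.0782) or P1 C (0.0983), and in a fit of only the P1 and E17 libraries (0.053). Between P1 and E11 the log2 fold change was -2.53 ± 0.12 (adjusted p = 1.21e-10), a 5.79-fold lower level at P1. Of all tested genes, 6.35% had a value as low or lower in that comparison.

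The balance of the de novo pair moved towards Dnmt3a with age. There were 17.1 Dnmt3a counts per Dnmt3b count at E11, 25.4 at E13, 36.7 at E17 and 53.1 at P1, with 44.6 to 69.3 over the P1 libraries against 15.3 to 18.6 over the E11 libraries and no overlap between any of the ages. The exact permutation test gave the smallest p it can reach, 6.49e-05 (8.12e-05 adjusted over the 5 ratios). Dnmt3b made up 5.54% ± 0.55 of the summed counts of both genes at E11, 3.80% ± 0.24 at E13, 2.65% ± 0.044 at E17 and 1.88% ± 0.40 at P1 (SD, n = 3 each). The counts were not divided by exon length, 16.6 kb for Dnmt3a and 5.11 kb for Dnmt3b, so these shares compare ages only.

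Tet1 was highest at E17 and lowest at P1. It had 70.1, 59.5 and 65.9 CPM at E11, 71.1, 75.3 and 72.0 CPM at E13, 78.9, 88.3 and 87.5 CPM at E17, and 60.7, 55.8 and 48.1 CPM at P1. The E17 libraries lay above all others, and the P1 libraries overlapped those of E11. For P1 against E17 the log2 fold change was -0.63 ± 0.08 (SE, adjusted p = 4.57e-05). It was 0.16 ± 0.08 for E13 against E11 (adjusted p = 0.145) and 0.22 ± 0.08 for E17 against E13 (adjusted p = 0.0265). The E17 call was lost under upper-quartile scaling (adjusted p = 0.133), under scaling by library size alone (0.690), and without E13 A (0.0735), E13 C (0.0634), E17 B (0.0770) or E17 C (0.0765). For P1 against E11 the log2 fold change of -0.25 ± 0.08 (adjusted p = 0.0136) missed the threshold without E11 A (0.0624) or P1 C (0.122).

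Tet2 rose between E11 and E13 and fell after E17. It had 35.4, 33.2 and 41.5 CPM at E11, 46.1, 63.4 and 55.0 CPM at E13, 63.1, 57.7 and 57.8 CPM at E17, and 44.3, 52.2 and 37.9 CPM at P1. All E13 libraries lay above all E11 libraries, and the E13 and E17 libraries overlapped. Its log2 fold change was 0.58 ± 0.13 for E13 against E11 (SE, adjusted p = 0.00442), 0.12 ± 0.13 for E17 against E13 (adjusted p = 0.421), with the sign turned under scaling by library size alone (-0.06), and -0.41 ± 0.13 for P1 against E17 (adjusted p = 0.0207). The fall at P1 missed the threshold without E17 A (adjusted p = 0.0814), P1 A (0.0686) or P1 C (0.110), and with no low-count filter (0.0589). For P1 against E11 the log2 fold change was 0.29 ± 0.13 (adjusted p = 0.0614), and it passed the threshold in 6 of the 23 alternatives, DESeq2 (0.0212) and the fit without P1 C (0.0120) among them.

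Tet3, the TET gene with the highest level per kilobase of exon at every age, rose between E11 and E13 and fell after E17. It had 239, 212 and 233 CPM at E11, 258, 284 and 269 CPM at E13, 250.1, 225 and 267 CPM at E17, and 216, 209.6 and 212 CPM at P1. The E13 libraries lay above the E11 and P1 libraries, and those of E17 overlapped E11 and E13. For Tet3 the log2 fold change was 0.25 ± 0.07 for E13 against E11 (SE, adjusted p = 0.00952), -0.13 ± 0.07 for E17 against E13 (adjusted p = 0.0976) and -0.22 ± 0.07 for P1 against E17 (adjusted p = 0.0131). The last call was lost without E17 A (adjusted p = 0.0685), E17 C (0.0730), P1 A (0.05003), P1 B (0.0765) or P1 C (0.0635). Between P1 and E11 it was -0.10 ± 0.07 (adjusted p = 0.164). Under upper-quartile scaling and under library size alone the value for E17 against E13 passed the threshold as a fall (0.0103 and 0.000499), as did that for P1 against E11 (0.0108 and 0.000239), and without E17 C that for E17 against E13 did too (0.0293).

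There were 3.50 Tet3 counts per Tet1 count at E11, 3.71 at E13, 2.91 at E17 and 3.89 at P1, with 2.55 to 3.17 over the E17 libraries and at least 3.41 in every other library. The exact permutation test of the difference across ages gave p = 0.00279, and 0.00279 after adjustment over the 5 ratios. Tet3 took 69.1% ± 0.60 of the summed TET counts at E11, 68.0% ± 0.77 at E13, 63.1% ± 2.13 at E17 and 68.1% ± 2.66 at P1 (SD, n = 3 each). These shares, too, were of counts not divided by gene length.

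**Figure D3:**
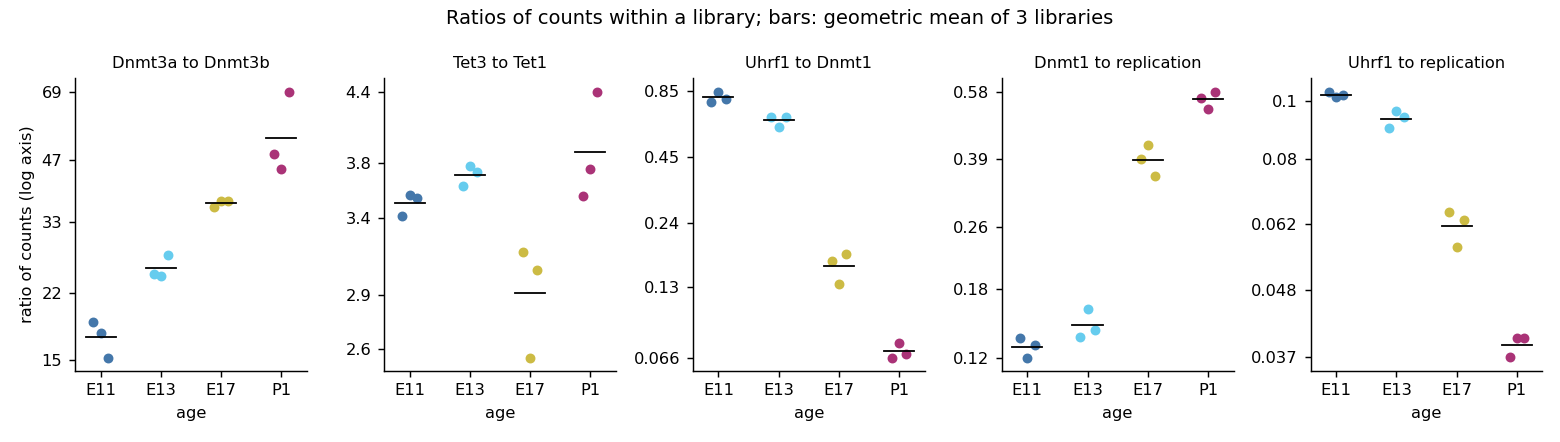
Ratio of counts within each library (points, log axes) for Dnmt3a to Dnmt3b, Tet3 to Tet1, Uhrf1 to Dnmt1, and Dnmt1 and Uhrf1 to the summed DNA replication genes, by age, with the geometric mean of 3 libraries as a line. The Dnmt3a to Dnmt3b ratio climbs with age to a mean of 53.1 at P1, Uhrf1 to Dnmt1 drops to 0.0701, and Tet3 to Tet1 is lowest at E17.

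Step by step, 6 of the 7 genes changed between E13 and E11, where 40.1% of all tested genes did. Tet2 and Tet3 were higher at E13, with 22.6% of all genes, and Uhrf1, Dnmt1, Dnmt3a and Dnmt3b lower, with 17.5% of all genes. Between E17 and E13, 5 changed against 73.8% of all genes, Tet1 upward with 36.8% and Uhrf1, Dnmt1, Dnmt3a and Dnmt3b downward with 37%. Between P1 and E17, 6 changed against 49.9% of all genes, and these were all lower at P1, as 25.9% of all genes were, with Dnmt3a the exception. For P1 against E11, 5 changed, all lower, where 82.3% of all genes changed, 40.5% higher and 41.8% lower. For E17 against E11, 6 changed, 2 higher and 4 lower, where 79.6% did, 40% higher and 39.7% lower. For P1 against E13, 6 changed, all lower, where 79.2% did, 38.5% higher and 40.7% lower.

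For E17 against E13 and in the longer spans the number of changed members lay near the share of all genes that changed. Uhrf1 had a log2 fold change of -3.19 ± 0.11 for E17 against E11 and -4.17 ± 0.12 for P1 against E13, Dnmt3b -2.14 ± 0.12 and -1.73 ± 0.12, Dnmt1 -0.87 ± 0.06 and -0.97 ± 0.06, and Dnmt3a -1.04 ± 0.07 and -0.68 ± 0.07. Tet1 and Tet2 were higher at E17 than at E11, by 0.38 ± 0.08 and 0.70 ± 0.13, and for Tet3 the value was 0.12 ± 0.07 (adjusted p = 0.112), with the sign turned under scaling by library size alone (-0.10) and under upper-quartile scaling (-0.009), and a call as higher without E17 B (0.19, adjusted p = 0.0169). Tet1 and Tet3 were lower at P1 than at E13, with -0.41 ± 0.08 and -0.35 ± 0.07, and Tet2 had -0.29 ± 0.13 (adjusted p = 0.0577). The Tet2 value passed the threshold under upper-quartile scaling (0.0334), library size alone (0.00478) and limma-voom (0.0466), and without E11 C (0.0424), E13 A (0.0123) or P1 B (0.0214). The median over the 7 genes was -0.18, -0.69 and -0.39 at the successive steps, beside medians over all tested genes of 0.0043, -0.036 and -0.00063. The comparisons share libraries, so they are not separate lines of evidence.

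**Figure D4:**
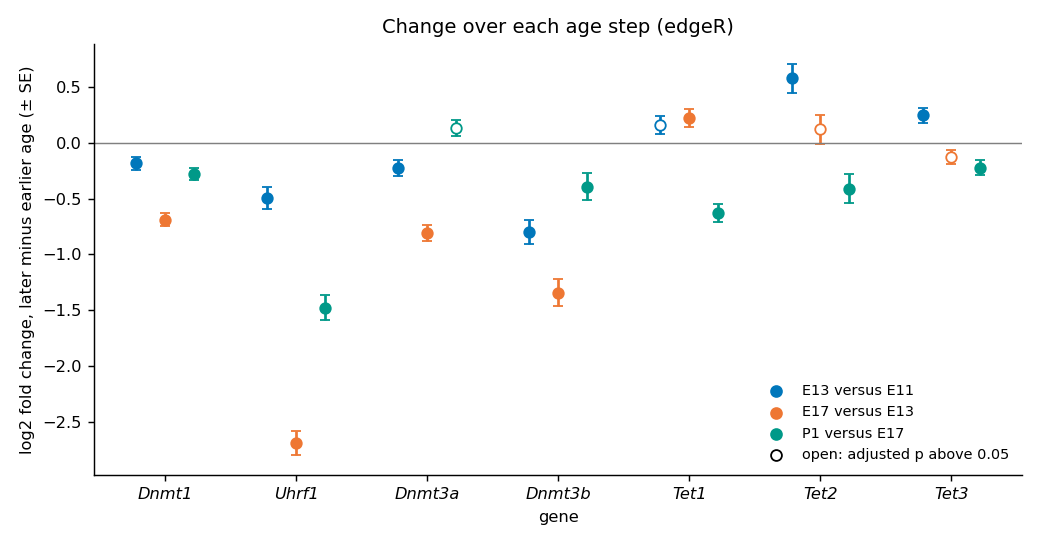
Log2 fold change of each of the 7 genes (horizontal positions by gene) for E13 against E11, E17 against E13 and P1 against E17, with the SE as a bar and open circles for values that missed the threshold of 0.05. Uhrf1 has the largest falls at the later steps, -2.69 and -1.48, and no TET gene moves by more than 0.63 at any step.

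Levels of different genes can be set side by side only per length, here CPM per kilobase of the union of annotated exons. At E11 the order was Uhrf1 (89.8), Dnmt1 (64.8), Dnmt3a (18.7), Tet3 (13.7), Tet1 (4.21), Dnmt3b (3.57) and Tet2 (2.176). At P1 it was Dnmt1 (29.2), Tet3 (12.7), Dnmt3a (10.004), Tet1 (3.55), Uhrf1 (3.54), Tet2 (2.65) and Dnmt3b (0.618). Uhrf1 thus had the highest level per kilobase of the 7 genes at E11 and lay with Tet1 in the lower ranks at P1. With the longest transcript as the length, the order of Tet1 and Tet2 at E13, E17 and P1 turned, as did that of Dnmt3a and Tet3 at E13, of Dnmt3a and Uhrf1 at E17, and of Uhrf1 with both Tet1 and Tet2 at P1.

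Most of the tested cofactor genes of DNA methylation were lower at P1. Of 11 cofactor genes 9 were tested. For P1 against E11, 8 were lower and 1 higher, beside 41.8% and 40.5% of all tested genes. The median log2 fold change of the list was -2.53, beside -0.036 over all tested genes and -3.28 over the 18 replication genes. The log2 fold change was -4.58 for Hells, a chromatin remodeller, -3.75 for Cdca7, its partner, and -4.58 for Cdca7l, a relative of Cdca7. It was -2.88 for Lig1, the ligase of lagging-strand fragments, and -2.53 for Pcna, the sliding clamp. Uhrf2, the relative of Uhrf1, had -1.07 and Usp7, a deubiquitinase that stabilises UHRF1 and DNMT1, had -0.15. Standard errors in this group ran from 0.0505 for Usp7 to 0.195 for Cdca7. Trim28, a corepressor that holds methylation at imprinted loci, fell by 1.06, whereas Zfp57, the zinc finger protein that directs it there, rose by 2.16. Dnmt3l, the partner of the de novo enzymes in germ cells, had 2 counts in all libraries together and Dppa3, which displaces UHRF1 from chromatin in the oocyte, had 5.

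Among 7 genes from families that include methyl-CpG readers, 2 were higher and 5 lower at P1 than at E11, with a median log2 fold change of -0.35. Of all tested genes 82.3% changed in that comparison, so the number of changed genes in this list was near the background. The zinc finger readers Zbtb38 and Zbtb4 rose by 2.40 and 2.05 on the log2 scale. Mbd4, a glycosylase that repairs mismatches at deaminated CpG, fell by 1.55, and the log2 fold change was -0.99 for Mbd2, -0.65 for Mbd3, -0.35 for Zbtb33 and -0.17 for Mbd1.

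Of 10 genes linked to base excision after TET oxidation, 7 were lower at P1 than at E11, 1 was higher and 2 missed the threshold, a total of 8 changed genes beside 82.3% of all tested genes. Tdg, the glycosylase that removes the oxidised bases, had a log2 fold change of -0.74 and Gadd45a one of -2.82. Gadd45g, of the same stress-inducible family, averaged 33.3 CPM at E11, 73.3 CPM at E13, 12.5 CPM at E17 and 6.16 CPM at P1, so it rose by 1.14 for E13 against E11 before falling. Neil1, another glycosylase, rose by 1.03.

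Of 6 TET partners and suppliers of their cosubstrate, 2 were higher at P1 than at E11, 3 lower and 1 missed the threshold, near the 40.5% higher and 41.8% lower of all tested genes. Cxxc4, which binds TET2 and lowers its protein level, rose by 2.29, and Idh1, which makes 2-oxoglutarate in the cytosol, rose by 1.08. Idh2, its mitochondrial counterpart, fell by 1.83. Qser1, which in human embryonic stem cells shields promoters from de novo methylation, fell by 1.52 and Cxxc5, a relative of Cxxc4, fell by 0.52. Ogt, a sugar transferase that binds the TET proteins, had a log2 fold change of 0.23 ± 0.11 (adjusted p = 0.0725).

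Of 9 genes linked to making and recycling the methyl donor, 8 were lower and 1 higher at P1 than at E11. This stood beside 41.8% and 40.5% of all tested genes, and the median was -1.35. The log2 fold change was -0.67 for Mat2a, which makes S-adenosylmethionine, -1.67 for Ahcy, which clears the product of methylation, -1.70 for Mtr, the methionine synthase, and -3.39 for Shmt1, of the folate cycle. The 1 higher gene was Ahcyl1, which is in the list as a relative of Ahcy and rose by 0.30.

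**Figure D5:**
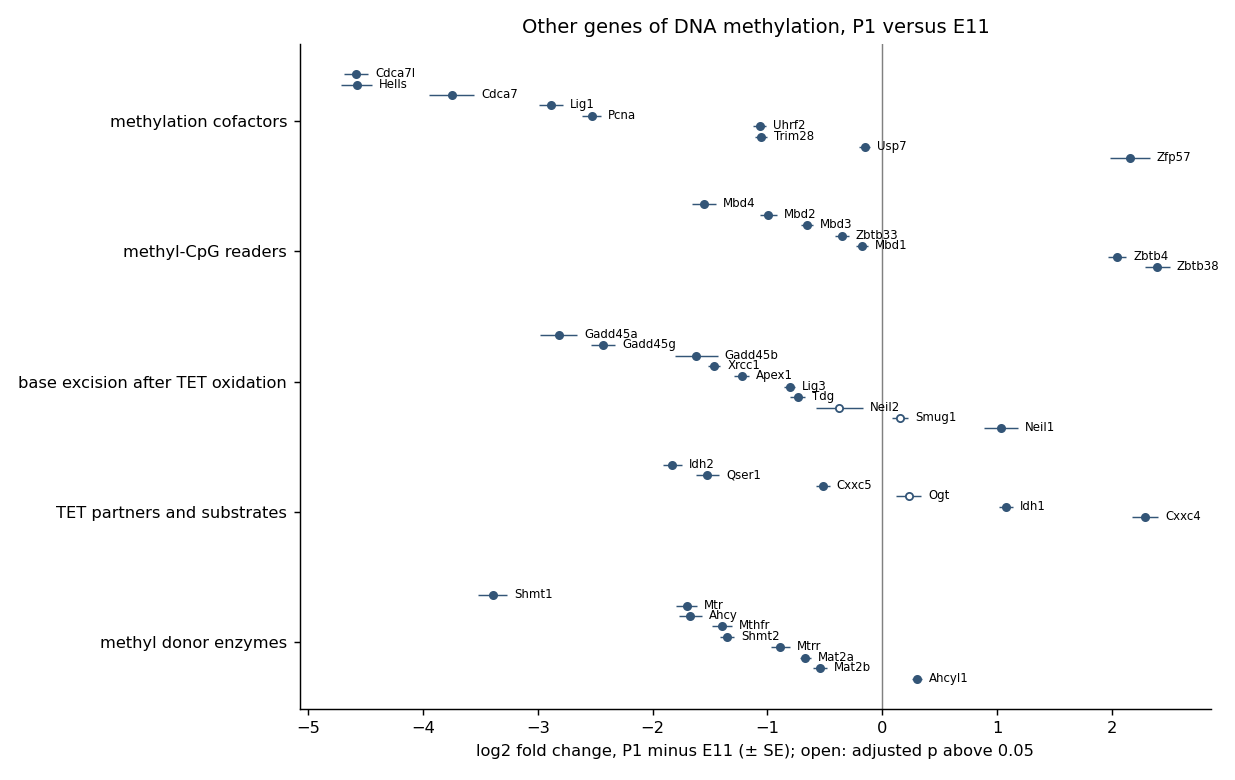
Log2 fold change for P1 against E11 (horizontal axis) of each tested gene in the lists of cofactors, readers, base excision genes, TET partners and methyl donor enzymes (rows), with the SE as a bar and open circles for values that missed the threshold of 0.05. The cofactors reach -4.58, while Zbtb38, Cxxc4 and Zfp57 lie between 2.16 and 2.40.

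Across the 12 libraries, the genes whose log2 CPM was most like that of each member, among 9865 or 9866 genes with a mean of at least 10 CPM, differed between members. Uhrf1 was closest to Kif20b, Pclaf and Fanci (Pearson's r of 0.9995, 0.9993 and 0.9991), Dnmt1 to Urod, Pom121 and Mthfd1 (0.9978, 0.9976 and 0.9976), Dnmt3a to Zyx, Eef1d and Gpc1 (0.9921, 0.9916 and 0.9914), and Dnmt3b to Zfp280b, Me2 and Dlg1 (0.9949, 0.9940 and 0.9939). For the TET genes the values were lower, with Tet1 closest to Shprh (0.9697), Tet2 to Gse1 (0.9568) and Tet3 to Gtf3c1 (0.9435). Between members, r was 0.9929 for Dnmt1 and Uhrf1, 0.9398 for Dnmt3a and Dnmt3b, and 0.5948 to 0.6779 between the TET genes. Pairs of a maintenance and a de novo gene were as alike as the de novo pair or nearly so. There r was 0.9801 for Dnmt1 and Dnmt3b, 0.9682 for Dnmt3b and Uhrf1, 0.94 for Dnmt1 and Dnmt3a, and 0.9126 for Dnmt3a and Uhrf1. These values describe libraries that fall into 4 ages and share their scaling, and carry no test.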

How the data were processed

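The deposited values were raw read counts per gene of 12 libraries, made by the authors from 75 bp single reads of a stranded poly(A)+ kit, per the labels' protocols. The tools named, per the submitters' processing notes, are STAR 2.5.2b, HTSeq 0.5.3, DESeq2 1.8.1, bcl2fastq 2.18 and SAMtools. What each did, the build, the annotation and the strandedness of counting is not given in the sources used here. Reads from overlapping antisense genes may therefore be shared, but the antisense Dnmt3aos and Gm42567, which overlap Dnmt3a and Tet2, had at most 1 and 6 counts per library.

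Counts were analysed with edgeR 4.0.16 in R 4.3.3: filterByExpr with a minimum count of 10 (17847 genes kept, 32753 removed), scaling by TMM (0.92 to 1.094), and a robust quasi-likelihood fit to all 12 libraries with 1 coefficient per age. The common biological coefficient of variation was 0.106. Tests were two-sided, with Benjamini-Hochberg adjustment across the tested genes at 0.05, and the SE of a log2 fold change is its size divided by the root of F. Ratios were of counts within a library, tested by exact permutation of F. Lengths came from GENCODE M21 and promoter windows from RefSeq GRCm38.p6. The scripts were tested on simulated data. The members and gene lists were chosen with earlier results of these data known. A further gene of the reader list is not reported here, and the list's counts and median are without it. All 7 members are named in each comparison; other genes come from the lists, any of them from lists of at most 12 genes and the largest changes from longer ones, and as likeness the 3 genes of highest r. Alternatives were other scalings and filters, a replicate block, fits of only the ages compared, DESeq2 1.42.0, limma-voom (limma 3.58.1), other denominators and each library left out.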

Additional observations from a re-analysis of the deposited data

How the results depend on the processing

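Of the 42 values of the 7 genes in the 6 comparisons, 34 were past the threshold, 26 of these under all 23 alternatives, 8 lost the call under at least 1, 6 of the 8 uncalled values gained it under at least 1, and 0 called values changed sign. The number of changed members between P1 and E17 ran from 3 to 6 over the fits without 1 library, with 3 without E17 A and 3 without P1 C, against 6 with all libraries. In these fits it was 4 to 6 for E13 against E11, 4 to 5 for E17 against E13, 4 to 6 for P1 against E11, 6 to 7 for both E17 against E11 and P1 against E13, and 7 across the 4 ages. Leaving out E11 A and E13 C together, a choice made after seeing the data, the calls lost were those of Dnmt1 for E13 against E11 (adjusted p = 0.0792), Tet1 for E17 against E13 (0.0642) and Tet1 for P1 against E11 (0.0730). Scaling by library size alone took the call of Tet1 for E17 against E11 (0.0786) and moved the median of all genes by -0.18, -0.23, -0.22 and -0.20 on the log2 scale for E17 against E13, P1 against E11, E17 against E11 and P1 against E13; upper-quartile scaling moved it by -0.13 for E17 against E11. Under library size alone 39.8% of the genes called between E17 and E13 were higher, against 49.8% in the TMM fit. The log2 change of the Tet3 to Tet1 ratio between P1 and E11 was 0.15, and 0.06 to 0.22 without 1 library. The replicate letters did not pair the libraries: r of deviations between libraries of the same letter at different ages was -0.34 to 0.33 over 18 pairs, and 5 of 12 libraries correlated best with their own letter. With the letter as a block, 6, 5, 6, 5, 6, 6 and 7 members changed in E13 against E11, E17 against E13, P1 against E17, P1 against E11, E17 against E11, P1 against E13 and across the ages, as without it, and 6756 genes of all changed between E13 and E11, against 7155. Depth limits Dnmt3b most, with 108 counts in its lowest library.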

Other observations

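Germline genes that promoter methylation keeps silent in somatic tissue were looked at as a group that depends on these enzymes. Of 12 such genes only Dazl and Ddx4 passed the filter on low counts, and the other 10 had 0 to 52 counts in all 12 libraries together. Dazl, an RNA-binding protein of germ cells, had a mean of 0.0696 CPM at E11, 0.103 CPM at E13, 0.774 CPM at E17 and 0.914 CPM at P1. Its libraries reached at most 0.0886 CPM at E11 and 0.140 CPM at E13, so it passed the filter only through the later ages. For that reason its log2 fold change for P1 against E11, 3.63 ± 0.38 (SE), is given without a test. Ddx4, a germ cell RNA helicase, averaged 0.899 CPM, 0.777 CPM, 1.95 CPM and 1.58 CPM at the same ages. Between P1 and E11 it rose by 0.81 ± 0.26 on the log2 scale (SE, adjusted p = 0.00927, edgeR), where 40.5% of all tested genes were higher. Both stayed at or under a mean of 1.95 CPM, and any link to the methylation genes was not tested.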
